A study of Homo sapiens with 8 samples.

Results

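The 46 genes described here encode proteins of the lysosome, the acidic organelle in which cells degrade macromolecules. They were taken by name from a list that was chosen with earlier results of these data known. They make up 46 of the 55765 gene names measured: 7 lysosomal membrane proteins, 23 hydrolases (with the activator protein GM2A), and 16 genes of the V-ATPase, the proton pump that acidifies the lumen. Total RNA was sequenced from NB4, a human acute promyelocytic leukaemia line with the PML-RARA fusion, and from Kasumi-1, a human myeloid leukaemia line with the RUNX1-RUNX1T1 fusion. Chlorprothixene, a thioxanthene antipsychotic and a cationic amphiphilic compound, was given at 40 uM for 6, 12 or 24 h, and with the untreated cells each line has 4 libraries, none of them a replicate. No vehicle is named for the untreated cells and they are not matched to the times, so drug and time in culture cannot be told apart. Levels are TPM as deposited (abundance per transcript length, with the same total in each library). A change is the log2(TPM + 1) of a treated library minus that of the line's untreated library, which understates the change of low genes.

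Lysosomal hydrolases are made in the endoplasmic reticulum, mostly tagged with mannose 6-phosphate in the Golgi, and work at the low pH that the V-ATPase maintains. That pump has a membrane-bound V0 sector, which conducts protons, and a cytosolic V1 sector, which hydrolyses ATP. Many of these genes share a promoter element with the core CACGTG that is bound by TFEB, TFE3 and MITF, and weakly basic amphiphilic drugs are known to accumulate in lysosomes.

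The promoters of 32 of the 46 genes were matched by name in the RefSeq table (build GRCh38.p14, 300 bases from 250 before to 50 after the start), and 14 were not: ARSA, ATP6V0D2, ATP6V0E1, ATP6V1A, ATP6V1B2, ATP6V1C1, ATP6V1H, CTSB, CTSS, HEXA, LAMP2, MANBA, NAGLU and SGSH. Both strands were searched for CACGTG and for its extension TCACGTG, which contains it. CACGTG stood in 11 of the 32 promoters (34.4%, exact 95% binomial interval 18.6% to 53.2%), against 7.43% of all 27305 promoters of the table. TCACGTG stood in 10 of them (31.2%) against 3.82% of all. Other lysosome genes, described at the end, held each motif in 12 of 55 promoters (21.8%, interval 11.8% to 35.0%). That interval overlaps the members' interval, so the excess was not particular to the members. The genes are a chosen list and not a random draw, so the intervals are descriptive only. By group, CACGTG was in 4 of 6 promoters of membrane proteins, 4 of 16 of hydrolases and 3 of 10 of V-ATPase genes. The stretches that hold the matches are shown for 7 genes: ATP6V0B, ATP6V0D1, GALNS and CTSA, whose levels after treatment were mostly above untreated, GAA and LAMP1, whose levels were not, and CLN3, which went opposite ways in the lines. Each reads 5′ to 3′ on the gene's strand, ends before the start site and has CACGTG in capitals. They lie at chr1:43974879-43974950, plus strand (ATP6V0B), chr16:67481187-67481240, minus strand (ATP6V0D1), chr16:88856950-88857145, minus strand (GALNS) and chr20:45891269-45891334, plus strand (CTSA). The others lie at chr17:80101481-80101579, plus strand (GAA), chr16:28492075-28492128, minus strand (CLN3) and chr13:113297023-113297238, plus strand (LAMP1).
ATP6V0B: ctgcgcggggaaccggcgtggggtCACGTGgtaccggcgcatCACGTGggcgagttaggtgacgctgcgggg
ATP6V0D1: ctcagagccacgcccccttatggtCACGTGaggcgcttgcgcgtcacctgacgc
GALNS: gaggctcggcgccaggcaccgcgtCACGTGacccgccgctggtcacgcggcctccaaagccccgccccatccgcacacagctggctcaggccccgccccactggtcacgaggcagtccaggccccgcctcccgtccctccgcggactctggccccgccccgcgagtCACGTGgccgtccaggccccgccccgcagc
CTSA: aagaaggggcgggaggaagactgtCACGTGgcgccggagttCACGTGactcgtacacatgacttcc
GAA: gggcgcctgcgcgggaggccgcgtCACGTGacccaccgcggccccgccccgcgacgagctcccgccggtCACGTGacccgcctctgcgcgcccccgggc
CLN3: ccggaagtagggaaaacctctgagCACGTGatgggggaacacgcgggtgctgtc
LAMP1: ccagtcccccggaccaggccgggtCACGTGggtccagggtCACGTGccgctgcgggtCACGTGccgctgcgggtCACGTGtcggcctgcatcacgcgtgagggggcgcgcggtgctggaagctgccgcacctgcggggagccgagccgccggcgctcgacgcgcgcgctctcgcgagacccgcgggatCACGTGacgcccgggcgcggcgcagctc
LAMP1 held 5 copies upstream of its start, the most of the 32, at positions -192, -176, -159, -142 and -28 counted from the start. ATP6V0B (-57 and -39), GALNS (-174 and -32), CTSA (-42 and -25), GAA (-76 and -31) and MCOLN1 (-41 and -14) held 2 each. A match describes letters in this window and is not a binding site.

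Of the markers chosen for Kasumi-1, KIT, CD34 and RUNX1T1 set it apart from NB4. They were at or below 0.311 TPM in every NB4 library against 449.8, 112 and 92.5 TPM in untreated Kasumi-1. CD33, chosen with them, did not set it apart, at 61.5 TPM in untreated NB4 and 48.5 TPM in untreated Kasumi-1. After treatment Kasumi-1 had less of the progenitor markers: KIT was at 72.5, 115 and 192 TPM and CD34 at 18.3, 36.5 and 57.5 TPM (6, 12 and 24 h), and the sum of KIT, CD34, RUNX1T1 and CD33 was 702.6 TPM untreated, then 189.9, 236.4 and 356.9 TPM. MPO and PRTN3, proteins of promyelocyte granules, were present in both lines, while ELANE was at or below 0.759 TPM in NB4. MPO, PRTN3, AZU1 and ELANE were the markers chosen for NB4, and each was higher in untreated Kasumi-1, so none of them identified NB4. The summed TPM of MPO, PRTN3, AZU1 and ELANE was 6154, 4040 and 2484 up to 12 h and 1806 at 24 h in NB4, and 17969, 20791, 14809 and 13409 in Kasumi-1. PRTN3 alone went between untreated and 24 h from 1002 to 139.8 TPM (NB4) and from 5971 to 1771 TPM (Kasumi-1). Between 13358 and 14582 genes reached 1 TPM in a library, and the ratio of coverage to FPKM, which stands for relative depth, ran from 7.08 to 9.82. Mitochondrially encoded genes took 5.04% to 6.71% of the TPM in NB4 and 7.94% to 17.12% in Kasumi-1, where the highest share was at 24 h. The summed TPM of 10 monocyte and macrophage markers in order of time was 73.8, 108.5, 232.1 and 322.7 for NB4 and 16.1, 80.0, 120.3 and 94.3 for Kasumi-1. Of these markers CD14 stayed at or below 0.813 TPM, CD163 and MRC1 at or below 0.0193 TPM, and MSR1 was listed at 0 throughout. In bulk RNA, fewer cells of a type and less RNA per cell cannot be told apart.

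As a group, the lysosomal genes stood above untreated late in the time course, most clearly in NB4. The median change of the 45 genes tested (those averaging 1 TPM or more) was -0.05 at 6 h, 0.24 at 12 h and 0.50 at 24 h in NB4, and -0.01, 0.31 and 0.24 in Kasumi-1. The medians of all 14650 genes tested lay between -0.08 and 0.01 in these 6 libraries. The Kasumi-1 value at 6 h turned to 0.007 when each library was centred on its median gene. At 24 h, 39 of 45 members were above untreated in NB4 (48.2% of all genes) and 33 of 45 in Kasumi-1 (45.5%). With TPM recomputed without mitochondrially encoded genes and the 10 most abundant genes, the Kasumi-1 medians were 0.34 at 12 h and 0.38 at 24 h, so which of these times was higher depends on this setting. The granule, progenitor, and monocyte and macrophage markers above moved over the same libraries, and their part in the medians was not tested. By group, the medians at 24 h were 0.62 for membrane proteins, 0.23 for hydrolases and 0.50 for the V-ATPase in NB4, against 0.34, 0.37 and 0.02 in Kasumi-1. NB4 had its highest level at 24 h for 28 of the 45 members (25.9% of all genes), and Kasumi-1 at 12 h for 15 (13.6%) and at 24 h for 16 (23.1%).

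**Figure D1:**
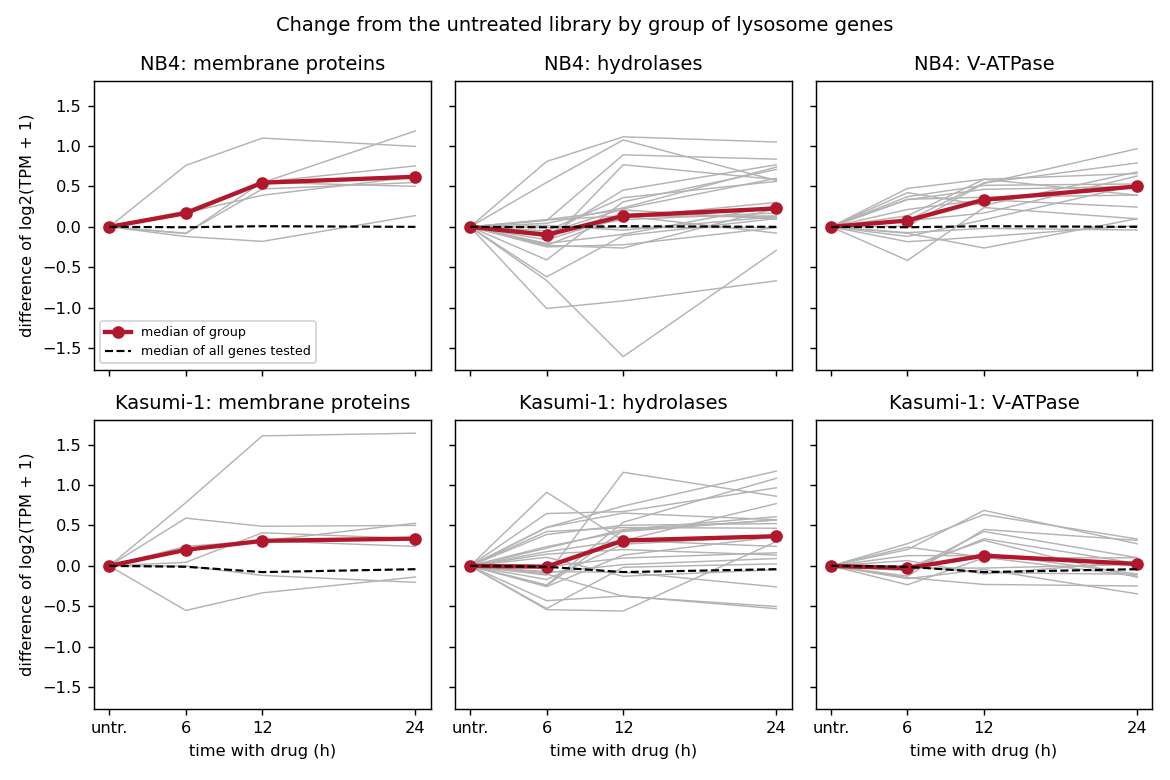
Difference of log2(TPM + 1) between a treated library and the line's untreated one, against hours with the drug, in panels by cell line and gene group. Grey lines are single genes, red points their median and the dashed line the median of all genes tested, and at 24 h the red median of the V-ATPase genes is 0.50 in NB4 and 0.02 in Kasumi-1.

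No single member passed the test of the response shared by both lines, taken as the average over 6, 12 and 24 h against untreated in a limma fit to all 8 libraries with cell line as a term. Since no culture was repeated, a p here reflects the likeness of the lines' responses. By limma, 0 of 45 members were higher and 0 lower at an adjusted p under 0.05, where 0.0273% of all genes were higher and 0.0% lower. When p was left unadjusted, 11 members were higher and 2 lower at 0.05, against 9.3% and 11.1% of all genes. Those higher at the unadjusted level were CD68, CD63 and LAMP2 of the membrane proteins, CTSA, CTSS, TPP1, HEXA, GALNS, ARSA and IDS of the hydrolases, and ATP6V0B of the V-ATPase. CTSB and NAGLU were the lower pair. The median of the shared change was 0.22 over the 45 members, against -0.02 over all genes tested. By group it was 0.38 for membrane proteins, 0.18 for hydrolases and 0.18 for the V-ATPase. LAMP2, CD63, MCOLN1, HEXA, GALNS, IDS, ATP6V0B and ATP6V1C1, 8 members, were above untreated in all 6 treated libraries (12.9% of all genes), and 0 were below in all 6 (16.9%).

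**Figure D2:**
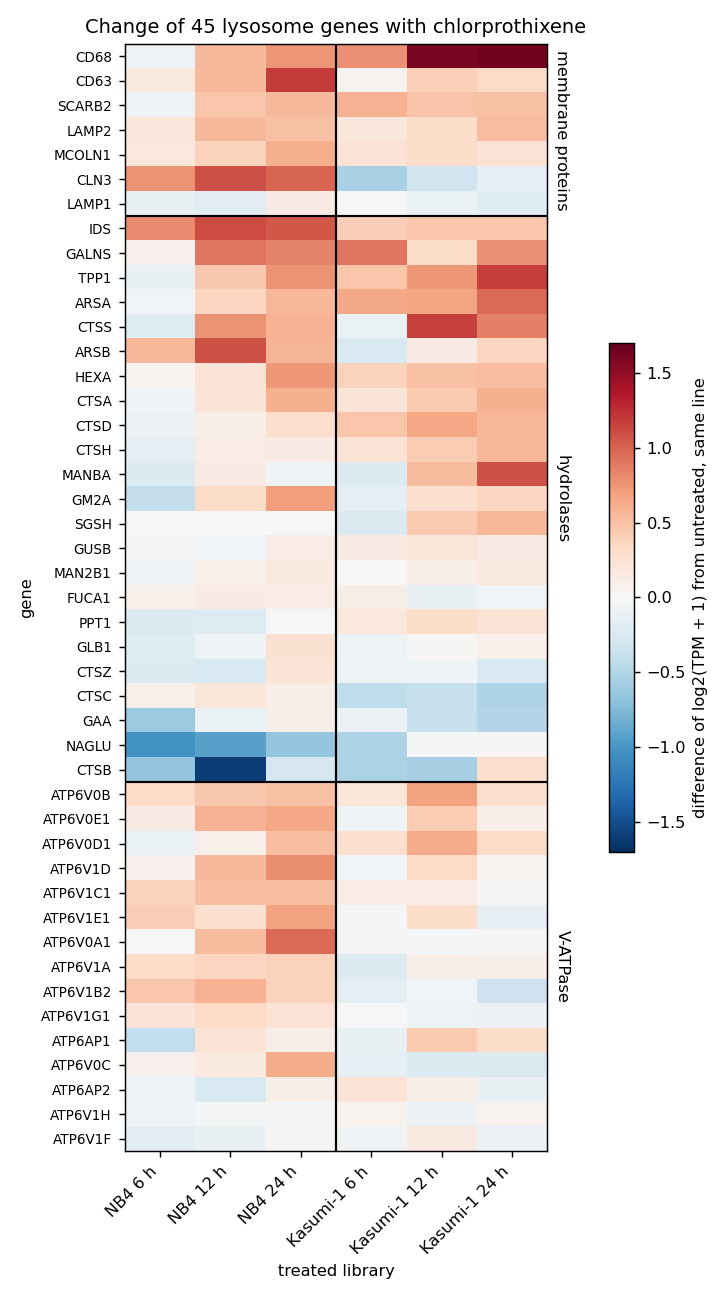
Change of each of the 45 tested genes in each treated library, as the difference of log2(TPM + 1) from untreated (colour scale), with genes in rows by group and the 6 treated libraries in columns. CD68 has the darkest red cells, at 12 and 24 h in Kasumi-1 (1.61 and 1.64), and CTSB the darkest blue, at 12 h in NB4 (-1.61).

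Among the membrane proteins, CD68 and CD63 had the largest shared changes. CD68, a heavily glycosylated protein of late endosomes and lysosomes that is used as a macrophage marker, was at 11.5, 10.8, 17.4 and 20.2 TPM in NB4 (untreated, 6, 12 and 24 h) and at 5.63, 10.4, 19.2 and 19.7 TPM in Kasumi-1. Kasumi-1, the line with less at the start, was close to NB4 at every treated time. Its shared change was 0.88 (SE 0.24, adjusted p = 0.127, limma), and without the untreated Kasumi-1 library it was 0.41. The monocyte and macrophage markers moved with it, as given above, and their part in the result was not tested.

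CD63, a tetraspanin of late endosomes and lysosomes, was at 145, 163, 213 and 332 TPM in NB4 and at 243, 250.3, 323 and 307 TPM in Kasumi-1. All treated libraries were above untreated in both lines, with the highest level in NB4 at 24 h (shared change 0.45, SE 0.18, adjusted p = 0.236, limma). LAMP2, a major glycoprotein of the lysosomal membrane and the receptor of chaperone-mediated autophagy in one of its isoforms, was at 152, 174, 223 and 216 TPM in NB4 and at 137, 158, 170.2 and 198 TPM in Kasumi-1. Its shared change was 0.38 (SE 0.12, adjusted p = 0.161, limma). SCARB2, also known as LIMP-2, carries glucocerebrosidase to the lysosome and had a shared change of 0.42 (SE 0.18, adjusted p = 0.258, limma), with only the NB4 library at 6 h below untreated. MCOLN1, the lysosomal calcium channel, went by 24 h from 17.9 to 28.1 TPM (NB4) and from 21.9 to 26.0 TPM (Kasumi-1). LAMP1, the other major membrane glycoprotein, had the lowest shared change of the group (-0.08, SE 0.14, adjusted p = 0.775, limma), with levels of 281 to 351 TPM (NB4) and 257 to 296 TPM (Kasumi-1). The promoter of LAMP1 held the most copies of CACGTG, as shown above.

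CLN3, a lysosomal membrane protein whose loss causes juvenile neuronal ceroid lipofuscinosis, went opposite ways in the lines. It was at 39.8, 68.1, 86.4 and 80.4 TPM in NB4 and at 31.8, 21.4, 25.03 and 28.8 TPM in Kasumi-1. All 3 treated NB4 libraries were above untreated and all 3 treated Kasumi-1 libraries below it. The response of Kasumi-1 minus that of NB4 was -1.29 (SE 0.31, unadjusted p = 0.00329, adjusted p = 0.263, limma), so the difference did not pass over all genes. Its shared change was 0.31 (SE 0.28, adjusted p = 0.563, limma) and turned to -0.34 without the untreated NB4 library. The tables hold 2 overlapping rows named CLN3 on the minus strand of hg19 chromosome 16, which were summed, and the second never exceeded 1.55 TPM.

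Among the hydrolases, the enzymes that release sulfate from glycosaminoglycans and sulfatides had the highest group median of the shared change (0.53 over 5 sulfatases), followed by the proteases (0.28 over 8) and the glycosidases (0.06 over 8). IDS, the iduronate sulfatase of heparan and dermatan sulfate breakdown, was at 11.2, 20.3, 25.3 and 24.2 TPM in NB4 and at 22.4, 30.4, 31.6 and 31.4 TPM in Kasumi-1. It was above untreated in all 6 treated libraries (shared change 0.72, SE 0.17, adjusted p = 0.114, limma). Its value also sums 2 overlapping rows on the minus strand of hg19 chromosome X, of which the second went from 0.466 TPM untreated to 9.35 TPM in Kasumi-1 at 12 h. The main row was at 21.96 and 22.2 TPM in those libraries, so the 12 h difference in Kasumi-1 lay almost wholly in the second row. GALNS, which desulfates keratan and chondroitin sulfate, was at 16.4, 17.4, 31.3 and 30.1 TPM in NB4 and at 14.2, 27.5, 17.9 and 24.9 TPM in Kasumi-1 (shared change 0.63, SE 0.26, adjusted p = 0.236, limma). ARSA, which desulfates sulfatide, was at 8.11, 7.80, 10.7 and 12.5 TPM in NB4 and at 12.3, 19.8, 20.2 and 24.9 TPM in Kasumi-1. Its shared change was 0.53 (SE 0.19, adjusted p = 0.186, limma). ARSB, another sulfatase, peaked at 61.6 TPM at 12 h in NB4 from 28.7 TPM untreated, and ran from 16.6 to 26.0 TPM in Kasumi-1.

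TPP1, a tripeptidyl peptidase, was at 67.3, 61.9, 92.7 and 116 TPM in NB4 and at 58.8, 82.2, 98.9 and 134 TPM in Kasumi-1. It ended highest at 24 h in both lines, with a shared change of 0.58 (SE 0.15, adjusted p = 0.119, limma). CTSS, the cysteine protease cathepsin S, was below untreated at 6 h in both lines and above it later, at 33.5 TPM against 19.3 TPM at 12 h in NB4 and 18.7 TPM against 7.80 TPM in Kasumi-1. CTSA, the protective protein of beta-galactosidase and neuraminidase, reached 89.9 TPM at 24 h from 58.9 TPM in NB4 and 166 TPM from 108 TPM in Kasumi-1. HEXA, the alpha subunit of beta-hexosaminidase, was at 156 TPM after 24 h against 92.9 TPM untreated in NB4, and at 145 TPM against 101 TPM in Kasumi-1. The shared changes of CTSS, CTSA and HEXA were 0.51, 0.34 and 0.41.

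The pair of hydrolases with the lowest shared change followed different courses. CTSB, the cysteine protease cathepsin B, was at 105, 65.6, 33.7 and 85.4 TPM in NB4 and at 77.0, 52.6, 52.0 and 95.1 TPM in Kasumi-1. Both lines were below untreated at 6 and 12 h, and at 24 h Kasumi-1 was above it (shared change -0.56, SE 0.22, adjusted p = 0.213, limma). NAGLU, a glucosaminidase of heparan sulfate breakdown, was at 38.3, 18.5, 19.8 and 23.7 TPM in NB4 and at 29.2, 19.9, 28.9 and 29.8 TPM in Kasumi-1. It stayed below untreated at all times in NB4, and in Kasumi-1 it was clearly below only at 6 h (shared change -0.52, SE 0.20, adjusted p = 0.209, limma). The difference between the lines in that response was 0.69 for NAGLU (SE 0.37, adjusted p = 0.56, limma).

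**Figure D3:**
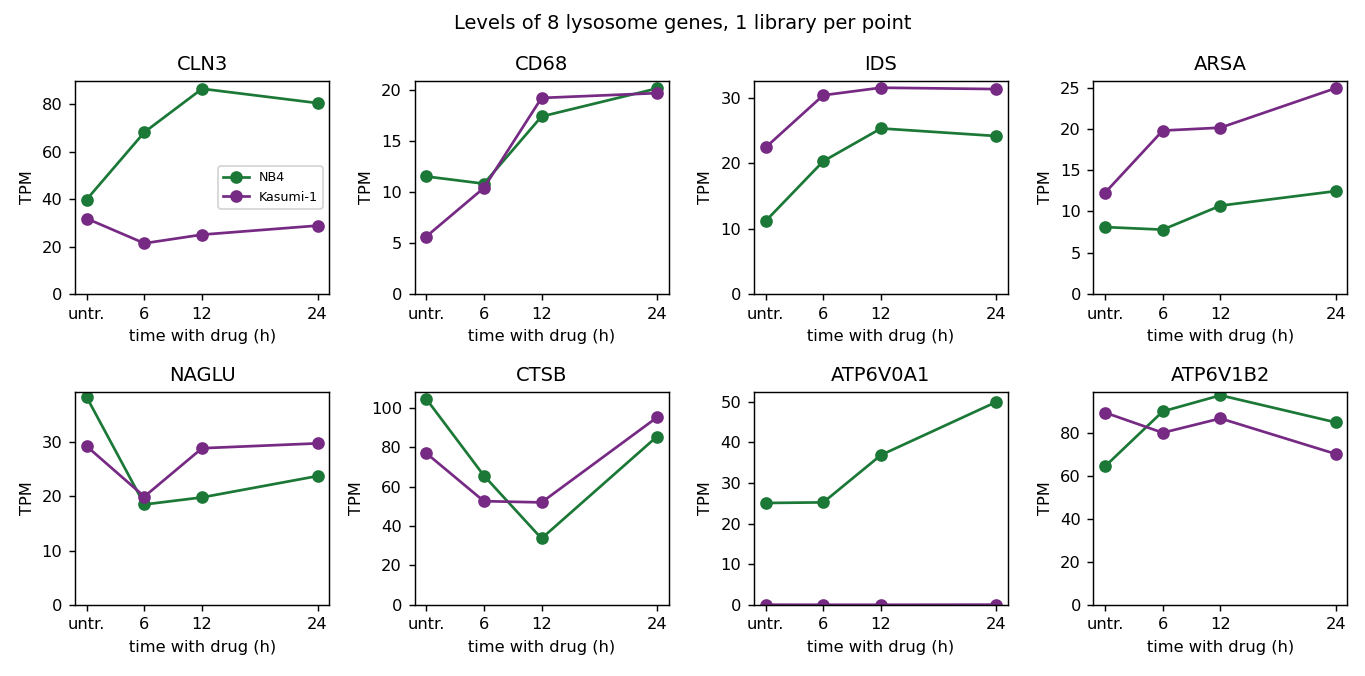
TPM of 8 lysosome genes against hours with the drug, with green for NB4 and purple for Kasumi-1 and 1 library per point. CLN3 in NB4 goes from 39.8 TPM untreated to 80.4 TPM at 24 h while Kasumi-1 stays at or below 31.8 TPM, and CTSB is lowest at 12 h in both lines.

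The V-ATPase genes had their highest sum at 24 h in NB4 and at 12 h in Kasumi-1. Their summed level was 1753, 1854, 2058 and 2326 TPM in NB4 (untreated, 6, 12 and 24 h), a ratio of 1.33 at 24 h, and 1682, 1685, 1965 and 1685 TPM in Kasumi-1. The Kasumi-1 sums at 6 and 24 h were close to untreated. At 24 h, 14 of 15 tested genes were above untreated in NB4 (48.2% of all genes) and 9 of 15 in Kasumi-1 (45.5%). The Kasumi-1 median of 0.02 at 24 h, the library in which mitochondrially encoded genes took 17.12% of the TPM, became 0.16 with the recomputed TPM. The 12 h median there was 0.13, and also 0.16 when recomputed, so by these medians 12 h did not stand above 24 h in that setting. Of the 15 genes, 11 had their highest NB4 level at 24 h (25.9% of all genes) and 8 their highest Kasumi-1 level at 12 h (13.6%). The median response difference of Kasumi-1 minus NB4 was -0.33 over the 15 genes, against -0.06 over all genes tested. No V-ATPase gene passed the test of that difference, as given below for all members.

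Within the pump, the V0 sector had a median shared change of 0.29 over 5 genes, the V1 sector 0.17 over 8 and the accessory subunits 0.04 over 2. ATP6V0B, a proteolipid of the proton-conducting ring, was at 216, 273, 298 and 306 TPM in NB4 and at 198, 228, 319 and 239 TPM in Kasumi-1. It was above untreated in all 6 treated libraries and had the highest shared change of the pump (0.41, SE 0.13, adjusted p = 0.166, limma). ATP6V0C, the main proteolipid of the ring, was at 324, 342, 365 and 502 TPM in NB4 and at 323, 292, 275 and 272 TPM in Kasumi-1. The lines thus began at the same level and moved apart (response difference -0.50, SE 0.32, adjusted p = 0.623, limma). ATP6V0D1, which couples the ring to the central stalk, reached 209.9 TPM at 24 h from 146 TPM in NB4 and 176 TPM at 12 h from 113 TPM in Kasumi-1. ATP6V0E1, a small V0 subunit, reached 141 TPM from 88.7 TPM and 151 TPM from 112 TPM at those times. Their shared changes were 0.29 and 0.31.

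In the V1 sector, ATP6V1B2, a nucleotide-binding subunit of the catalytic head, was at 64.4, 89.9, 97.4 and 84.8 TPM in NB4 and at 89.4, 80.0, 86.6 and 70.1 TPM in Kasumi-1. All treated libraries were above untreated in NB4 and below it in Kasumi-1 (response difference -0.67, SE 0.25, unadjusted p = 0.0283, adjusted p = 0.413, limma). ATP6V1D, of the central stalk, went by 24 h from 19.6 to 34.7 TPM (NB4) and from 22.5 to 23.0 TPM (Kasumi-1). ATP6V1C1, which joins the sectors, was above untreated in all 6 treated libraries, by 0.37 to 0.53 in NB4 and by 0.02 to 0.13 in Kasumi-1. ATP6V1F and ATP6V1H, a stalk subunit and a regulatory subunit, had the lowest shared changes of the pump (-0.05, SE 0.13 and -0.02, SE 0.13). The other members, ATP6V1A, ATP6V1E1, ATP6V1G1, ATP6AP1 and ATP6AP2, had shared changes between -0.005 and 0.26.

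The gene of the V0 a subunit, which forms the proton path beside the ring, differed most between the lines. ATP6V0A1 was at 25.1, 25.2, 36.9 and 49.99 TPM in NB4, and in Kasumi-1 it was listed at 0 at 6 and 12 h and at 0.0191 and 0.0319 TPM otherwise. The line difference was -5.07 (SE 0.21), a size that depends on the pseudocount because Kasumi-1 was near 0. ATP6V0A1 reached the minimum mean level for testing only through NB4. A line difference was thus built into its selection, and its p is not given. With its paralogs TCIRG1 (a3) and ATP6V0A2 (a2), the summed level of the a subunit was 204, 214, 288 and 388 TPM in NB4, against 54.4, 47.8, 41.8 and 52.3 TPM in Kasumi-1. TCIRG1 made up 69.7% to 76.9% of it in NB4, and ATP6V0A2 made up 61.5% to 74.6% in Kasumi-1. ATP6V0A2 itself was within 25.7 to 40.2 TPM in all 8 libraries. ATP6V0D2, a d subunit paralog, was listed at 0 in all 8 libraries and was not tested.

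**Figure D4:**
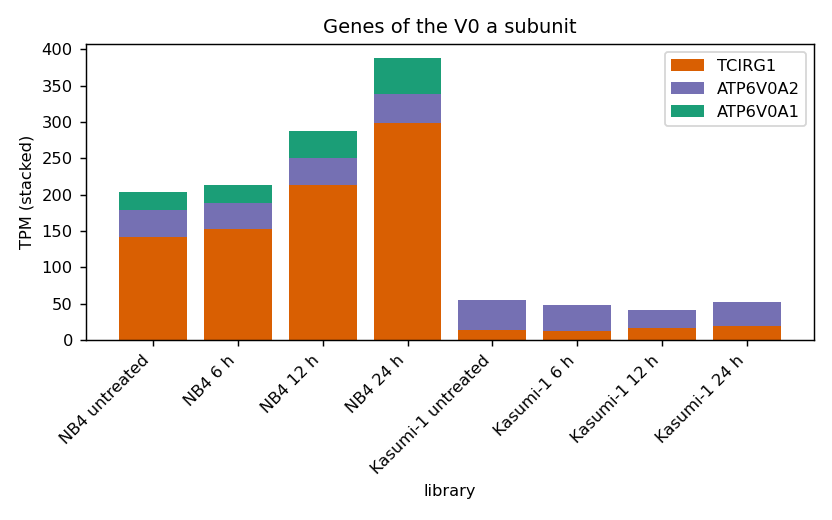
Stacked bars of the TPM of the V0 a subunit genes TCIRG1, ATP6V0A2 and ATP6V0A1 in each of the 8 libraries (1 library per bar). The NB4 bars go from 204 TPM untreated to 388 TPM at 24 h, mostly TCIRG1, and the Kasumi-1 bars stay between 41.8 and 54.4 TPM, mostly ATP6V0A2.

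Levels of many hydrolases differed between the lines. The limma line difference (Kasumi-1 minus NB4 over the 4 conditions) passed an adjusted p under 0.05 for 23 of 45 members, 15 higher and 8 lower in Kasumi-1, where 27.8% of all genes were higher and 27.5% lower. Here the 4 conditions of a line, treated ones included, serve as repeats. A p thus reflects how steady the difference was over the conditions, and not the variation between cultures of a line. The split was 18 of 23 hydrolases (14 higher, 4 lower), 2 of 7 membrane proteins and 3 of 15 V-ATPase genes, against 55.4% of all genes in either direction. The levels of the lines did not overlap for 13 of 23 hydrolases, 1 of 7 membrane proteins and 5 of 15 V-ATPase genes, against 47.2% of all genes. No test compared these shares. FUCA1, SGSH and ATP6V0A1 are in both counts, though they reached the minimum mean level only through the line where they were high. The shares over all genes can hold such genes too.

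Glycosidases led the genes higher in Kasumi-1. GAA, the acid alpha-glucosidase that degrades glycogen, was at 22.1, 14.0, 20.4 and 23.8 TPM in NB4 and at 332, 309, 255 and 234 TPM in Kasumi-1 (difference 3.76, SE 0.19, adjusted p = 9.67e-06, limma). FUCA1, the alpha-fucosidase, was listed at 0 in untreated NB4 and was at most 0.1003 TPM there after treatment, against 12.8 to 15.3 TPM in Kasumi-1. SGSH, the sulfamidase of heparan sulfate breakdown, was listed at 0 in all NB4 libraries and was at 3.81, 3.05, 5.53 and 6.13 TPM in Kasumi-1. A value listed at 0 can be a failed estimate, since the widely expressed sialidase gene NEU1 was listed at 0 in all 8 libraries. The fitted differences of FUCA1 (3.81, SE 0.17) and SGSH (2.46, SE 0.21) depend on the pseudocount. Both genes reached the minimum mean level for testing only through Kasumi-1. A line difference was thus built into their selection, and their p is not given.

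CTSZ, the cysteine carboxypeptidase cathepsin Z, was at 71.7 to 101 TPM in NB4, against 314 to 376 TPM in Kasumi-1 (difference 2.08, SE 0.14, adjusted p = 3.69e-05, limma). CTSA followed with 1.0 (SE 0.11, adjusted p = 0.000319, limma). The palmitoyl thioesterase PPT1 (0.93), ARSA (0.90), the beta-galactosidase GLB1 (0.79), the beta-glucuronidase GUSB (0.73) and the beta-mannosidase MANBA (0.73) were also higher in Kasumi-1, with adjusted p from 0.000796 to 0.0229 in limma. The same held for the aspartic protease CTSD (0.73), the alpha-mannosidase MAN2B1 (0.70), the sphingolipid activator GM2A (0.68) and IDS (0.54), with adjusted p from 0.000953 to 0.0196 in limma. CD63 was the membrane protein higher in Kasumi-1 (0.46, SE 0.16, adjusted p = 0.0452, limma), and this call held in 6 of 16 alternative settings.

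Proteases led the hydrolases lower in Kasumi-1. CTSH, the aminopeptidase cathepsin H, was at 170, 152, 186 and 186 TPM in NB4 and at 14.4, 17.2, 19.7 and 21.9 TPM in Kasumi-1 (difference -3.18, SE 0.12, adjusted p = 3.67e-06, limma). CTSC, the dipeptidyl peptidase that activates the serine proteases of myeloid granules, was the most abundant hydrolase in NB4, at 547 to 632 TPM, against 179 to 259 TPM in Kasumi-1 (-1.51, SE 0.14, adjusted p = 0.000138, limma). CTSS (-1.01, adjusted p = 0.000874) and ARSB (-0.99, adjusted p = 0.00397) were lower as well in the limma fit. CLN3 was the membrane protein lower in Kasumi-1 (-1.28, SE 0.24, adjusted p = 0.00386, limma). Before treatment the lines were closer for CLN3, with 31.8 TPM (Kasumi-1) against 39.8 TPM (NB4). The fitted difference also averages over the treated libraries, where CLN3 was above untreated for NB4 and below it for Kasumi-1. In the pump, besides ATP6V0A1, ATP6V1H (-0.57, SE 0.11, adjusted p = 0.00462, limma) and ATP6V1F (-0.33, SE 0.11, adjusted p = 0.0394, limma) were lower, and the call of ATP6V1F held in 4 of 16 alternative settings. The calls of the other members past the threshold held in every alternative run for them, except IDS (14 of 16) and MANBA (13 of 16).

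**Figure D5:**
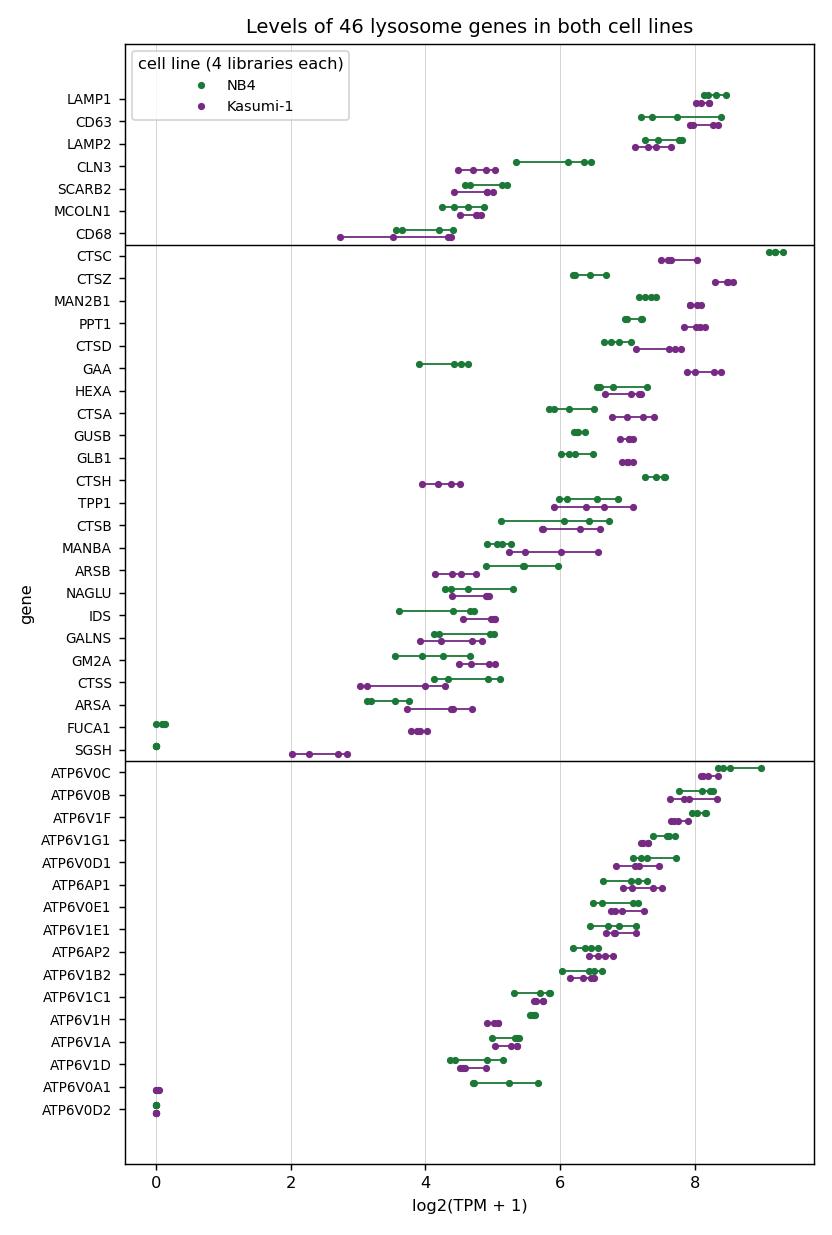
Level of each of the 46 genes as log2(TPM + 1), with 4 libraries of NB4 in green and 4 of Kasumi-1 in purple and a line over the range of each. GAA, FUCA1, SGSH and CTSZ lie wholly to the right in Kasumi-1, and CTSH, CTSC and ATP6V0A1 wholly to the left, while the ranges of most membrane proteins overlap.

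No member passed the test of a different response in the lines. By limma, 0 of 45 members were higher and 0 lower in Kasumi-1 than in NB4 at an adjusted p under 0.05, against 0.041% and 0.0887% of all genes. At an unadjusted p under 0.05, 0 were higher and 3 lower (CLN3, CTSC and ATP6V1B2), against 4.22% and 6.37% of all genes. CTSC was above untreated at each time in NB4, with changes of 0.09 to 0.21, and below it in Kasumi-1, with changes of -0.53 to -0.37 (response difference -0.58, SE 0.21, adjusted p = 0.413, limma).

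Changes of at least 1.5-fold at all 3 times were few. In NB4 they were seen higher for 2 members, CLN3 and IDS (5.6% of all genes), and lower for 1, NAGLU (3.37%). In Kasumi-1 they were seen higher for 2, CD68 and ARSA (5.49%), and lower for 0 (4.89%). Leaving out the 6 h library gave 5 higher members in NB4 and 4 in Kasumi-1, and leaving out the 24 h library gave 2 lower members in NB4. This looser rule can only keep or raise a count, for any genes. Its share over all genes is not given, so these counts are not a result about the members. At 6 h alone, 2 members were at least 1.5-fold higher and 3 lower in NB4 (8.92% and 8.51% of all genes), and 4 higher and 0 lower in Kasumi-1 (14.6% and 12.2%). At 12 h the counts were 7 higher and 2 lower in NB4 (13.5% and 9.34%), and 7 higher and 0 lower in Kasumi-1 (11.4% and 14.7%). At 24 h, 16 members were at least 1.5-fold higher and 1 lower in NB4 (14.7% and 11.1% of all genes), and 7 higher and 0 lower in Kasumi-1 (13.5% and 15.1%). The 16 were CD63, MCOLN1, CLN3, CD68, CTSA, CTSS, TPP1, HEXA, GM2A, GALNS, IDS, ATP6V0A1, ATP6V0C, ATP6V0E1, ATP6V1D and ATP6V1E1. The 7 in Kasumi-1 were CD68, CTSA, CTSS, TPP1, GALNS, ARSA and MANBA. MANBA went from 43.5 TPM untreated to 93.3 TPM at 24 h there, and from 34.2 to 32.4 TPM in NB4.

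Members with and without the extended motif had these shared changes. The median was 0.32 over the 10 genes with TCACGTG, with a range of -0.27 (GAA) to 0.63 (GALNS), 0.14 over the 22 genes without it and 0.20 over the 13 tested genes with no promoter entry. At 24 h in NB4, 10 of the 10 and 21 of the 22 were above untreated (48.2% of all genes), and in Kasumi-1 6 of the 10 and 15 of the 22 (45.5%). Of the 13 with no promoter entry, 8 were above untreated at 24 h in NB4 and 12 in Kasumi-1. GAA and LAMP1, with 2 and 5 copies upstream, were among the 4 of the 10 below untreated in Kasumi-1 at 24 h. ATP6V1G1 and CLN3 were the others.

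Of 67 other lysosome genes (further hydrolases, lipid-handling proteins, membrane proteins, pump and sorting genes, and the TFEB family), 59 were tested. None passed the shared test in limma (0 higher, 0 lower), while 17 were higher and 3 lower without adjustment (9.3% and 11.1% of all genes). The lower genes were CTSG, TPCN2 and LAMTOR2. CTSG, the granule protease cathepsin G, went by 24 h from 464 to 31.0 TPM (NB4) and from 11.6 to 1.98 TPM (Kasumi-1), with a shared change of -1.565 (SE 0.34, adjusted p = 0.101, limma). TPCN2, a lysosomal cation channel (-0.67), and LAMTOR2, a subunit of the Ragulator complex (-0.42), were below untreated in all 6 treated libraries. The median shared change of the 59 genes was 0.11. PSAP, the precursor of the saposins, was at 344, 358, 461 and 642 TPM in NB4 and at 367, 606, 641 and 602 TPM in Kasumi-1 (0.60, SE 0.19, adjusted p = 0.154, limma). NPC1, which exports cholesterol from lysosomes, went by 24 h from 20.02 to 39.0 TPM (NB4) and from 26.9 to 40.1 TPM (Kasumi-1). SMPD1, the acid sphingomyelinase, went from 2.73 to 9.14 TPM and from 4.20 to 7.44 TPM. Every treated library was above untreated for PSAP, NPC1 and SMPD1. Of the 8 lipid-handling genes, 6 were above untreated in all 6 treated libraries (12.9% of all genes). The others, PLA2G15 and GALC, had shared changes of -0.28 and -0.05. TFE3, a transcription factor that binds the motif above, was at 27.8, 55.7, 63.7 and 59.5 TPM in NB4 and at 22.0, 45.6, 48.9 and 42.7 TPM in Kasumi-1, with a shared change of 1.05 (SE 0.12, adjusted p = 0.0607, limma). TFEB was between 0.829 and 4.37 TPM in all libraries (0.69, SE 0.28, adjusted p = 0.234, limma). MITF was at 4.40, 3.98, 3.39 and 4.13 TPM in NB4, below untreated at each treated time. In Kasumi-1 it was at or below 0.940 TPM (shared change 0.02, SE 0.23, adjusted p = 0.969, limma).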

How the data were processed

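Libraries were made from total RNA with an Illumina TruSeq kit, per the labels' protocols. Reads were processed with HISAT2 and StringTie on hg19, per the submitters' processing notes, with versions, annotation and strandedness not given in the sources used here. The deposited TPM and FPKM values are abundances scaled for length and depth, and the deposited coverage is a signal of mean read depth per gene, per the file headers. Coverage was used only for relative depth, and no counts were used, so no counting interval is given for levels.

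Rows were summed by gene name (CLN3 and IDS had 2 each). Genes averaging 1 TPM or more, 14650 in number, were tested on log2(TPM + 1) with limma 3.58.1 (eBayes with trend, run in R 4.3.3), two-sided, adjusted by Benjamini-Hochberg over all of them with a threshold of 0.05, after the script was tested on simulated data. The shared response and line difference came from a fit with cell line and time, and the response difference from a fit of line by treatment in which a line's 3 times serve as repeats. Groups were taken from the titles. Figures and summaries used Python 3.11.15, pandas 2.3.3, numpy 2.4.6 and matplotlib 3.10.9. Alternatives were FPKM, a pseudocount of 0.1, a minimum mean of 5 TPM or none, TPM recomputed without mitochondrially encoded genes and the 10 most abundant genes, median centring, other model terms and leaving out each library. No 2 libraries were identical.

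The genes named were, in each group, those with the highest (up to 4) and lowest (up to 2) shared change, the largest response and line differences (up to 2 each), every gene past a test and every gene not tested. Others, among them HEXA, MCOLN1, ATP6V0C, ATP6V1C1 and the genes outside the 46, were named after their values were seen. The members and lists were chosen with earlier results of these data known.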

Additional observations from a re-analysis of the deposited data

Results flagged for a closer look

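In 6 of the 45 tested genes (13.3%, against 11.6% of all genes tested) the 3 treated libraries of one line were all above untreated and the 3 of the other all below. These shares are close, so the count is not a result about the members, and the genes are given as description only. The response of Kasumi-1 minus that of NB4, on the log2(TPM + 1) scale, was -1.29 for CLN3, -0.67 for ATP6V1B2, -0.58 for CTSC, -0.50 for ATP6V0C, -0.33 for ATP6V1G1 and 0.40 for PPT1. CLN3, ATP6V1B2, CTSC, ATP6V0C and ATP6V1G1 were above untreated in NB4 and below it in Kasumi-1, and PPT1, a lysosomal thioesterase, the other way round. The limma test of the difference passed for 0 of the 6 after adjustment over all genes, and 3 (CLN3, ATP6V1B2 and CTSC) were under 0.05 before it. The 3 treated libraries of a line share 1 untreated library.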

How the results depend on the processing

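Counts of members past each limma test stayed within 1.5 times under the alternatives run. In the shared response 0 passed in all 17, with 2 to 14 higher and 0 to 2 lower at an unadjusted p under 0.05. The share of all genes at that unadjusted p in the alternatives is not given. In the line difference 13 to 15 were higher and 7 to 10 lower over 16 alternatives, and in the response difference 0 passed in 13. Among all genes the line difference gave 4078 higher and 4036 lower as reported. It gave 2897 to 4568 higher and 3031 to 4369 lower in the alternatives. Over all genes, those higher in the shared response numbered 4 as reported and 0 to 78 in the alternatives, and those lower 0 and 0 to 55 (78 and 55 with the times of each line treated as repeats), and those passing the response difference numbered 6 higher and 13 lower, or 256 and 272 without a minimum level. Without an untreated library the response difference could not be fitted. Leaving out 1 treated time, the members at least 1.5-fold changed at the remaining times numbered 2 to 5 (higher) and 1 to 2 (lower) in NB4 and 2 to 4 (higher) in Kasumi-1. Dropping a time can only keep or raise such counts. Their share over all genes is not given, so they are not a result about the members. With TPM recomputed without mitochondrially encoded and the 10 most abundant genes, a setting added for the medians (of all members and of each group) after seeing the data, the Kasumi-1 medians at 24 h were 0.48 for membrane proteins, 0.51 for hydrolases and 0.16 for the V-ATPase. The main values were 0.34, 0.37 and 0.02, and the cause was not tested.

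The shared change of CLN3 ran from -0.34 (without the untreated NB4 library, a reversal) to 0.95 (without the untreated Kasumi-1 library) when 1 library was left out. That of ATP6V1H, near 0 throughout, reversed to 0.002 with FPKM, 0.003 with recomputed TPM, and to 0.004, 0.006 and 0.008 on leaving out NB4 at 6 h, untreated NB4 or Kasumi-1 at 12 h, and it ran from -0.045 to 0.008 over such omissions. Among the members past the line difference, CD63, ATP6V1F, IDS and MANBA lost the call in some settings and the others in none. No pairing by replicate was possible because each condition has 1 library and the labels carry no replicate numbers. The fits of the shared response and line difference pair the lines by time only. With 1 library a condition, values near 0 TPM and the size of differences from 0 are the least certain.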
